A study of Mus musculus with 9 samples.

Results

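The 10 imprinted growth genes H19, Igf2, Igf2r, Meg3, Dlk1, Peg3, Plagl1, Grb10, Mest and Impact were taken by symbol from the 24411 gene symbols of the expression table, and all 10 had a row. Their mRNA was measured by poly(A)-selected RNA-seq in 9 macrophage lines of C57BL/6 mice, 3 from the E9.5 yolk sac (YS lines), 3 from the E14.5 fetal liver (FL lines) and 3 from adult bone marrow (BM lines). All 9 lines were genetically unmodified and had been expanded over a long period in medium with serum and recombinant human M-CSF, the growth factor that keeps macrophages alive and dividing, and no line received another treatment. A line was the uncloned culture of a separate dish or well, started from cells pooled over several mice. Lines of a group may therefore share a starting pool, and p-values measure only the spread between lines. Values are TPM, a transcript share that corrects for transcript length and library size and can be compared between genes. TPM keeps no read depth, so the error given is the SD between the 3 lines of a group, and an exact 0 is reported as listed at 0.

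Imprinted genes are transcribed mainly from the copy inherited from the mother or mainly from the copy inherited from the father, and many of them govern fetal and placental growth. Igf2, Dlk1, Peg3, Plagl1, Mest and Impact are known as genes of the paternal copy, and H19, Meg3, Igf2r and, in most tissues, Grb10 as genes of the maternal copy. Many are high in the embryo and fall after birth. The deposited values sum both copies, so allele use was not measured here.

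H19 is the host of a microRNA, miR-675, and its mature arms are shown because H19 was the member that most set a line apart. The sequences are those of RefSeq (GRCm38.p6, minus strand), at chr7:142577112-142577133 for the 5p arm and chr7:142577078-142577099 for the 3p arm, with the seed (bases 2 to 8) in capitals. The row of the miR-675 precursor, Mir675, was listed at 0 in all 9 lines, and poly(A)-selected libraries do not measure mature microRNAs.
mmu-miR-675-5p: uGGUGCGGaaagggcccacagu
mmu-miR-675-3p: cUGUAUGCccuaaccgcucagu

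Plagl1 and Peg3 both encode zinc-finger proteins, and their promoters are shown because each holds a motif of a protein known from imprinted gene control. The windows run from 250 bases before to 50 bases after a RefSeq start, and such windows were found for 8 of the 10 members. The PLAGL1 motif GGGGCCCC, searched on both strands, lay in a window of 1 of these 8 genes, Peg3, against 1.25% of 27025 genes. The motif TGCCGC of ZFP57, a protein that guards imprints in the embryo, lay in a window of 5 of 8 members on either strand (Grb10, Igf2, Meg3, Mest and Plagl1), against 13.1% of genes. The YY1 motif AANATGGC lay in 0 of 8, against 6.96% of genes. A gene was counted if any of its windows matched, so a gene with more windows had more places for a match. By window, the PLAGL1, ZFP57 and YY1 motifs lay in 1, 6 and 0 of 15 member windows. The shares of all 32851 windows were 1.08%, 11.6% and 6.05%. The ZFP57 motif holds a CpG, and the CpG content of the windows was not taken into account. These matches are letters in a window and do not show binding. In the Peg3 window (chr7:6730370-6730669, minus strand, 13 CpG) the capitals mark the PLAGL1 motif. In the Plagl1 window (chr10:13090582-13090881, plus strand, 26 CpG) they mark the ZFP57 motif, read on the opposite strand. The median window of all genes held 7 CpG.
Peg3 promoter: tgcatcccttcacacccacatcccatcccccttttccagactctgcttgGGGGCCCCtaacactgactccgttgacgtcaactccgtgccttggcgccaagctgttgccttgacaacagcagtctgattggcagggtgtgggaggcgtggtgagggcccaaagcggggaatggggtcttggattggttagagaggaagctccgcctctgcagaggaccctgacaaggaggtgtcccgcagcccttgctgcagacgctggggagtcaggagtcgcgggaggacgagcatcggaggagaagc
Plagl1 promoter: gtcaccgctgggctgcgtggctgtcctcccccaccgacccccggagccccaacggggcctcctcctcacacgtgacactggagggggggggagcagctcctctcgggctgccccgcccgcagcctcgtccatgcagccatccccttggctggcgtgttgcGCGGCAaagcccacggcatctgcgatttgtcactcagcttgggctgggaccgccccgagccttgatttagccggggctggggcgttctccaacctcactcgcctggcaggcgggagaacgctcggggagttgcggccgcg

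The transcripts of all 9 lines included the defining macrophage genes. Each of 10 macrophage markers, among them Csf1r, the M-CSF receptor, and Lyz2, the lysozyme that was the highest, was at 1 TPM or more in every line, with a summed level from 4571 to 28822 TPM. A list of 11 mesenchyme markers summed to at most 4.34 TPM in any line, and 11 hepatoblast and endoderm markers to at most 21.4 TPM. A list of 8 endothelium markers summed to between 0.22 and 3.20 TPM in the BM lines and to between 19.04 and 56.3 TPM in the YS and FL lines. Kdr was the highest of the list in YS lines 2 and 3 and in the FL lines, at 16.1 to 54.4 TPM. In YS line 1 Kdr was at 0.29 TPM, and Tie1 was the highest at 25.8 TPM. BM line 2 stood apart in 10 erythroid markers, which summed to 390 TPM there and to between 0.66 and 14.9 TPM in the other lines. The adult and embryonic globin genes Hba-a1, Hba-a2, Hbb-y, Hba-x and Hbb-bt were at 215, 102, 43.0, 14.8 and 12.6 TPM in that line, whereas Klf1, the erythroid transcription factor, was at 0.28 TPM. Hba-a1 and Hba-a2 are near-identical copies, so reads may have been divided between them. In bulk RNA, fewer cells of a type and less RNA per cell cannot be told apart.

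Most imprinted growth genes were barely detected in these macrophages. Impact and Igf2r were expressed in nearly all lines. H19, Igf2, Peg3 and Plagl1 reached 1 TPM only in some lines, so that 6 of 10 members reached 1 TPM in at least 1 library. Meg3, Dlk1, Grb10 and Mest stayed under 1 TPM in all 9. H19, Igf2, Meg3, Dlk1 and Grb10, 5 of the 10 members, were highest in BM line 2. Only Igf2r and Impact passed the filter of at least 1 TPM in at least 3 libraries, and the other 8 were compared with the exact permutation test, whose smallest p for 3 lines against 3 is 0.1.

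**Figure D1:**
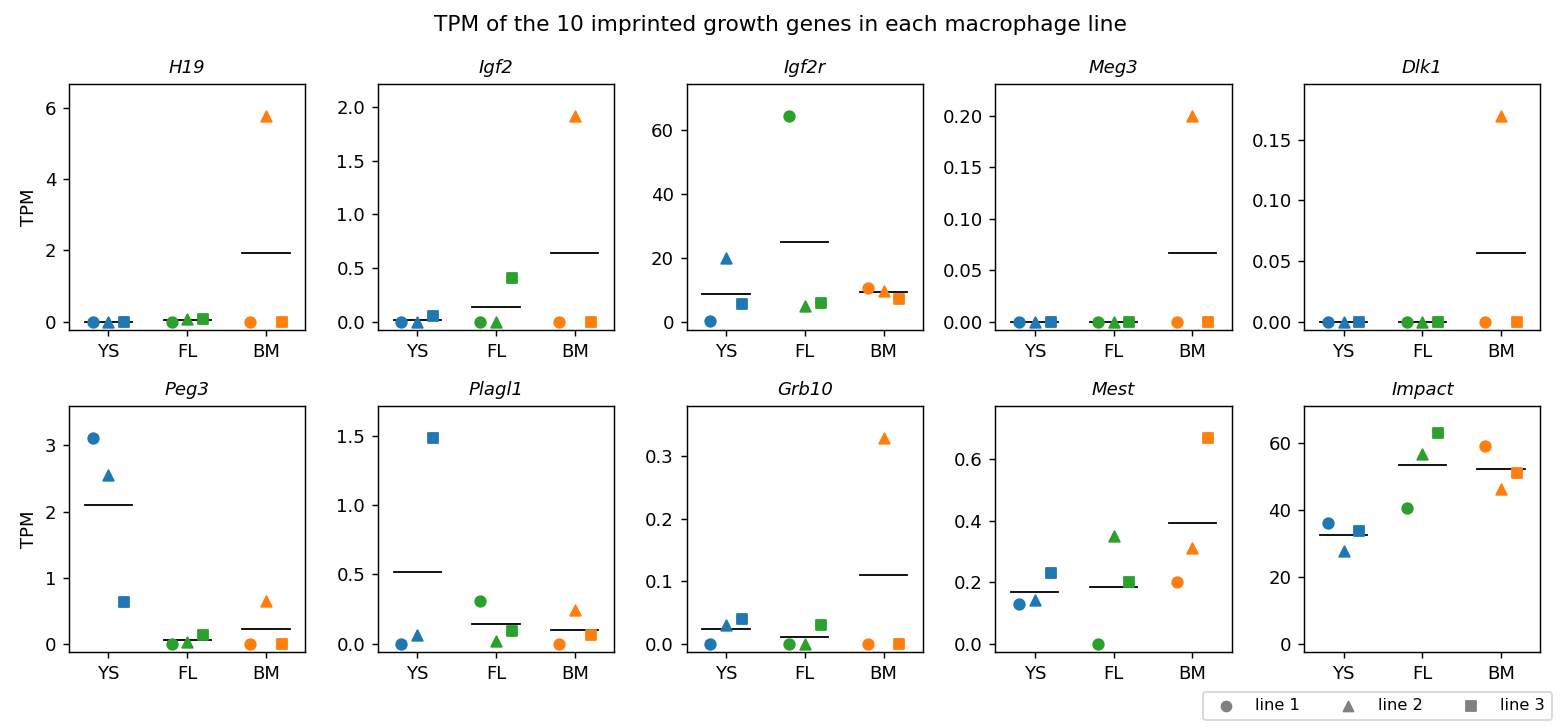
TPM of the 10 imprinted growth genes in the YS, FL and BM lines, with a linear axis of its own for each gene. Symbols mark lines 1, 2 and 3 of a group and the bar is the group mean. H19, Igf2, Meg3, Dlk1 and Grb10 peak in BM line 2, Peg3 is highest in YS lines 1 and 2, and Igf2r ranges from 0.11 to 64.5 TPM.

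IGF2 is the fetal growth factor of the family, and H19 is the non-coding RNA made from the neighbouring locus on the other parental copy. Igf2 was listed at 0 in YS lines 1 and 2 and at 0.05 TPM in YS line 3. FL line 3 held 0.41 TPM, with FL lines 1 and 2 listed at 0. BM line 2 reached 1.92 TPM, with BM lines 1 and 3 listed at 0. A single line thus held the only value over 1 TPM. H19 was listed at 0 in all 3 YS lines, in FL line 1 and in BM lines 1 and 3. The remaining values were 0.06 TPM for FL line 2, 0.07 TPM for FL line 3 and 5.79 TPM for BM line 2. Both genes of the domain were therefore highest in the same line. The BM lines had mean log2(TPM + 1) values of 0.92 for H19 and 0.52 for Igf2, and those means rested on BM line 2. The difference of YS from BM lines was -0.92 for H19 (exact two-sided permutation p = 1) and 0.00 without BM line 2, and that for Igf2 was -0.49 (exact two-sided permutation p = 1) and 0.02 without it.

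In the Dlk1-Meg3 domain, Dlk1 and Meg3 were also highest in BM line 2. Dlk1 encodes a transmembrane relative of the Notch ligands that holds precursor cells back from differentiation, and Meg3 is the maternal non-coding RNA of the domain. Dlk1 was at 0.17 TPM and Meg3 at 0.20 TPM in BM line 2, and both were listed at 0 in the other 8 lines. Rian, a non-coding RNA downstream of Meg3, had 0.16 TPM in BM line 2 and was listed at 0 elsewhere, while Mirg and Dio3 were listed at 0 in all 9 lines. Rtl1 and Begain of the same domain were listed at 0 in BM line 2. Rtl1 was at 0.03 TPM in FL line 3 and Begain at 0.05 TPM in FL line 2. These values lie far under 1 TPM, and without a read depth they cannot be given a counting error. Globin transcripts were also highest in BM line 2, which is a single library. Of 11 mesenchyme markers, 1 was listed at 0 in BM line 2 and 6 to 10 in each other line. Their sum was 2.65 TPM in BM line 2, below the 4.34 TPM of FL line 3. Acta2 was at 1.25 TPM in BM line 2 and 2.79 TPM in FL line 3, and Postn at 0.04 and 1.55 TPM. Col1a1 was at 0.44 TPM, Col1a2 at 0.32 TPM and Dcn at 0.16 TPM in BM line 2, and all were listed at 0 in BM lines 1 and 3. Col1a1 was also at 0.27, 0.10 and 0.04 TPM in the YS lines. Dcn is also one of the further imprinted genes below. The part of these cell markers in the values of the members was not tested. The YS line with the highest Hba-a1 level among the other lines, YS line 1 at 8.62 TPM, had H19, Igf2, Meg3 and Dlk1 all listed at 0. FL line 3, second in the summed erythroid markers at 14.9 TPM, was also second in Igf2 (0.41 TPM) and in H19 (0.07 TPM). FL line 2, at 0.67 TPM in the summed erythroid markers, had nearly the same H19 level, 0.06 TPM.

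**Figure D2:**
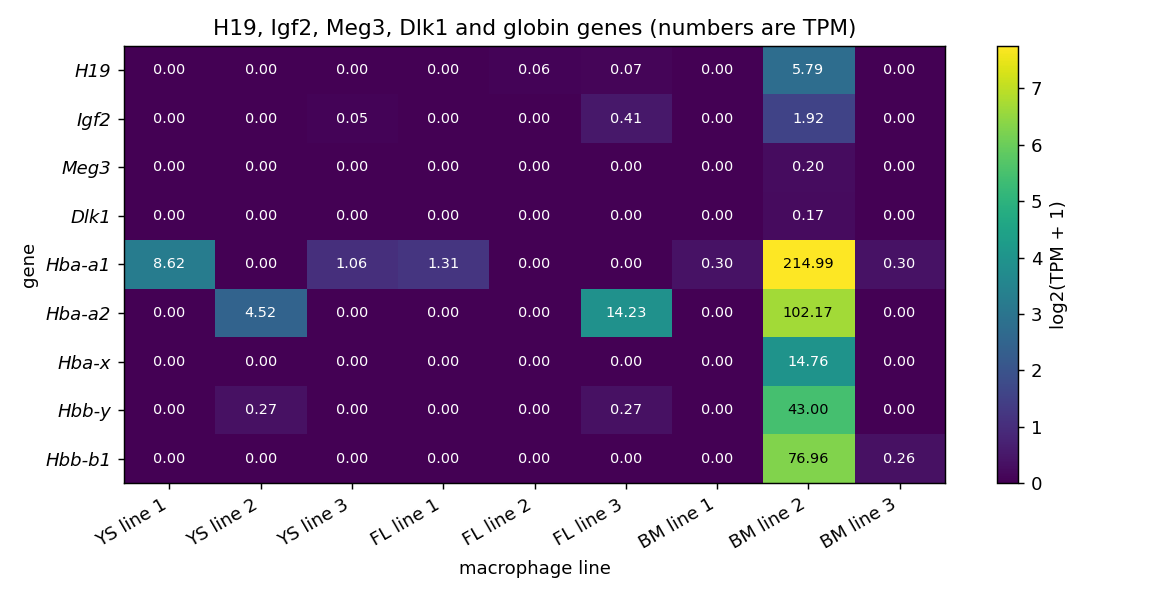
Heat map of H19, Igf2, Meg3, Dlk1 and 5 globin genes (rows) in the 9 lines (columns). Colour is log2(TPM + 1) and the numbers are TPM. BM line 2 holds the highest value in every row, from 0.17 TPM for Dlk1 to 215 TPM for Hba-a1.

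BM line 2 was also set against YS line 2 over genes chosen to be low in BM lines 1 and 3. After the values had been seen, 271 genes were picked that were at 2 TPM or more in YS line 2 and under 0.2 TPM in BM lines 1 and 3. In BM line 2 the median of these genes was at 14.0% of its level in YS line 2 (quartiles 7.77% and 19.5%). No other YS line and no FL line was used as the reference, so the ratio does not single out YS line 2. BM lines 1 and 3 were low by the choice itself. No such ratio was taken for BM line 1 or 3, so the median has nothing to be set against. Peg3 in BM line 2 was at 25% of YS line 2, and the imprinted genes Sgce, Peg10, Casd1, Sfmbt2 and Tspan32 at 18.8%, 23.9%, 15.3%, 25.4% and 3.72%. H19 and Igf2 were listed at 0 in YS line 2, so they could not be among the genes picked and have no such ratio. By the same kind of count, 17 genes were at 1 TPM or more in BM line 2 and under 0.2 TPM in the other 8 lines, H19 among them, and each of the other lines had between 5 and 35 such genes. The source of these transcripts was not tested.

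IGF2R, the cation-independent mannose 6-phosphate receptor, carries lysosomal enzymes to lysosomes and removes IGF2 from the cell surface. Its level varied widely among the lines. In YS lines 1, 2 and 3, Igf2r was at 0.11, 19.99 and 5.44 TPM. It was at 64.5, 4.90 and 5.67 TPM in FL lines 1, 2 and 3 and at 10.6, 9.63 and 7.14 TPM in BM lines 1, 2 and 3. BM lines were close together, whereas YS line 1 had almost no Igf2r and FL line 1 had 3.23 times the next highest value. FL line 1 also stood apart in the Y-linked genes Eif2s3y, Ddx3y, Uty and Kdm5d, each at 1 TPM or more there and under 0.2 TPM in the other 8 lines, and their part in the Igf2r level was not tested. Group means were 25.02 ± 34.2 TPM in the FL lines, 9.12 ± 1.78 TPM in the BM lines and 8.51 ± 10.3 TPM in the YS lines (SD, n = 3). No neighbours in this order differed beyond the spread. The log2 fold change was -0.91 ± 1.15 (SE) for YS against BM lines (limma adjusted p = 0.577), 0.45 ± 1.15 for FL against BM lines (adjusted p = 0.821) and -1.37 ± 1.15 for YS against FL lines (adjusted p = 0.476). The first turned to 0.22 without YS line 1, and the second to -0.67 without FL line 1.

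Airn is the paternal non-coding RNA that is transcribed across the Igf2r promoter from the opposite strand and that silences the paternal Igf2r copy in many tissues. Airn was at 22.8, 16.1 and 22.5 TPM in BM lines 1, 2 and 3. It was at 0, 9.41 and 1.09 TPM in the YS lines and at 0, 11.4 and 0 TPM in the FL lines, so all BM lines were above all other lines. Airn fell by 2.93 on the log2 scale in YS against BM lines (SE 1.08, limma adjusted p = 0.0747) and by 3.20 in FL against BM lines (SE 1.08, adjusted p = 0.0715). Both calls were close to the threshold. They were lost on leaving out any BM line, with adjusted p from 0.130 to 0.179, and also without YS line 1 (0.189), YS line 3 (0.143), FL line 1 (0.196) or FL line 3 (0.194). The lines without Airn held both extremes of Igf2r, as Airn was listed at 0 in YS line 1 and in FL line 1. The libraries were directional, but whether strand was used in the counting is not given in the sources used here. Without strand, reads of Airn and Igf2r introns cannot be told apart. Slc22a2 and Slc22a3, the other genes of the domain, were listed at 0 in all lines.

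Across the 9 lines, the genes most like Igf2r in log2(TPM + 1) were Ano10 (Pearson r = 0.923, Spearman rho = 0.483), 0610010F05Rik (0.922 and 0.683) and Fam199x (0.905 and 0.900). Like Igf2r, Ano10 was lowest in YS line 1 (26.2 TPM) and highest in FL line 1 (57.1 TPM). These are descriptions over 9 libraries that share group and library scale, picked as the highest of 11753 genes.

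Among the genes that sort lysosomal enzymes with IGF2R, Gnptab was lower in both YS and FL lines than in BM lines. All 16 genes of this list passed the filter. In YS against BM lines 3 of 16 were called (1 higher, 2 lower), where 12.8% of the 11753 tested genes were called at an adjusted p under 0.1 and over 2-fold (7.57% higher, 5.22% lower). In FL against BM lines 3 of 16 were called (2 higher, 1 lower), where 10.3% of all genes were (6.01% higher, 4.3% lower). In YS against FL lines 0 of 16 were called by limma, with 3 at an unadjusted p under 0.05, and 3.79% of all genes were called. The median log2 fold change of the list was 0.10, 0.27 and -0.16 in the 3 comparisons, against 0.11, 0.09 and 0.02 over all genes tested.

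GNPTAB and GNPTG are subunits of the enzyme that starts the mannose 6-phosphate tag. Gnptab was at 57.7, 40.0 and 32.9 TPM in the YS lines, 41.2, 59.2 and 61.2 TPM in the FL lines and 151, 121 and 163 TPM in the BM lines. The BM lines were thus above all embryonic lines. It fell by 1.74 in YS lines (SE 0.23, limma adjusted p = 0.00241) and by 1.42 in FL lines (SE 0.23, adjusted p = 0.00421) against BM lines on the log2 scale. Gnptg fell by 1.14 in YS against BM lines (SE 0.21, limma adjusted p = 0.00745), and by 0.92, short of 2-fold, without YS line 1. In FL against BM lines the Gnptg difference was -0.73 and was not called. Nagpa, the enzyme that uncovers the finished tag, lay the other way, at 74.2 to 103 TPM in the YS and FL lines and 55.0 to 60.9 TPM in the BM lines. Its differences of 0.56 (YS against BM lines, limma adjusted p = 0.0231) and 0.55 (FL against BM lines, adjusted p = 0.0290) were under 2-fold. Ap1b1, a subunit of the AP-1 coat that gathers the receptors at the Golgi, rose by 1.25 in FL against BM lines (SE 0.16, limma adjusted p = 0.00169). In YS against BM lines it rose by 1.03 (SE 0.16, adjusted p = 0.00404). That rise was short of 2-fold without YS line 1 (0.94), BM line 1 (0.95) or BM line 3 (0.99). M6pr, the smaller mannose 6-phosphate receptor, was at 372 to 800 TPM and was called in no comparison.

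IGF1R binds IGF1 and IGF2, and insulin receptor substrates pass the signal on. Of 23 further genes of this axis only 8 passed the filter, and these were higher in YS and FL lines than in BM lines where called. In YS against BM lines 5 of 8 were called, all higher (7.57% of all genes were called higher). In FL against BM lines 3 of 8 were called, all higher (6.01% of all genes), and in YS against FL lines 2 of 8, 1 in each direction (1.95% of all genes were called higher and 1.85% lower). The 10 genes Ins1, Igfbp1, Igfbp2, Igfbp3, Igfbp7, Igfals, Pappa, Pappa2, Stc1 and Stc2 did not exceed 0.42 TPM in any line.

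Igf1, the postnatal growth factor that macrophages are known to make, was the most abundant ligand. It was at 280, 184 and 171 TPM in the YS lines, 192, 225 and 191 TPM in the FL lines and 38.5, 82.4 and 24.8 TPM in the BM lines. Every YS and FL line was above every BM line. Igf1 rose by 2.24 in YS lines (SE 0.38, limma adjusted p = 0.00525) and by 2.21 in FL lines (SE 0.38, adjusted p = 0.00531) against BM lines on the log2 scale, and both calls stood on leaving out any 1 line. Its receptor gene Igf1r was at 13.6, 6.36 and 5.80 TPM in the YS lines, and 4.92, 3.20 and 1.07 TPM in the FL lines, while among BM lines only line 2 had a value above 0, 1.39 TPM. Igf1r rose by 2.75 in YS against BM lines (SE 0.50, limma adjusted p = 0.00694). The rise of 1.48 in FL against BM lines (SE 0.50, adjusted p = 0.0739) was lost without FL line 1 (0.206), FL line 2 (0.164), BM line 1 (0.220) or BM line 3 (0.219).

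The IGF2BP proteins bind Igf2 mRNA and other transcripts and are known as fetal RNA-binding proteins. Igf2bp1 was at 18.7, 8.76 and 5.16 TPM in the YS lines, 1.76 TPM in BM line 2 and at most 0.02 TPM in the other 5 lines. It rose by 2.92 against BM lines (SE 0.50, limma adjusted p = 0.00546) and by 3.39 against FL lines (SE 0.50, adjusted p = 0.0157). Igf2bp3 was higher in YS and FL lines alike, at 68.7 ± 23.5 TPM in the YS lines, 63.3 ± 7.98 TPM in the FL lines and 22.2 ± 4.05 TPM in the BM lines (SD, n = 3), and rose by 1.48 in FL against BM lines (SE 0.23, limma adjusted p = 0.00378). These binding proteins were thus expressed in lines in which Igf2 itself was listed at or near 0. GRB10, an adaptor that dampens insulin and IGF receptor signalling, was nearly absent, with Grb10 at 0.33 TPM in BM line 2 and at most 0.04 TPM in the other lines. Irs2, the adaptor of the insulin receptor, was at 0.04, 7.33 and 2.84 TPM in the YS lines and 10.9, 20.5 and 18.2 TPM in the FL lines. Irs2 fell by 2.40 in YS against FL lines (SE 0.64, limma adjusted p = 0.0659), a call lost without FL line 2 (0.178), FL line 3 (0.175) or any BM line (0.108 to 0.114).

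**Figure D3:**
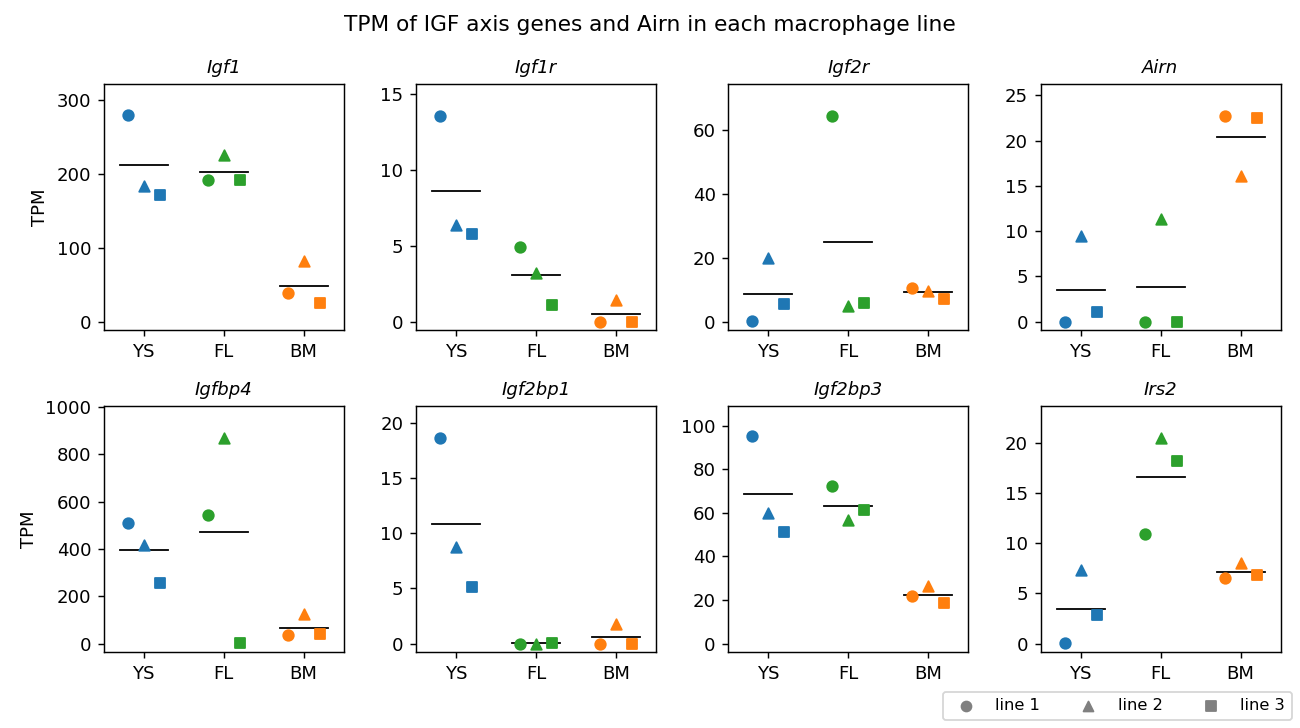
TPM of Igf1, Igf1r, Igf2r, Airn, Igfbp4, Igf2bp1, Igf2bp3 and Irs2 in the YS, FL and BM lines, with a linear axis for each gene. Symbols mark lines 1, 2 and 3 and the bar is the group mean. Igf1 is at 171 TPM or more in all YS and FL lines and at most 82.4 TPM in the BM lines, whereas Airn is at 16.1 TPM or more only in BM lines.

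Peg3 was highest in YS lines 1 and 2. It encodes a zinc-finger protein linked to maternal behaviour and to cell death pathways. Peg3 was at 3.12, 2.56 and 0.63 TPM in the YS lines, 0, 0.02 and 0.13 TPM in the FL lines and 0, 0.64 and 0 TPM in the BM lines. All YS lines were above all FL lines, and YS line 3 was level with BM line 2. The YS and FL lines stood apart for 26.1% of all genes tested. The mean log2(TPM + 1) of YS lines was higher by 1.46 than that of FL lines (exact two-sided permutation p = 0.1, the smallest possible) and by 1.29 than that of BM lines (exact two-sided permutation p = 0.2). Peg3 did not pass the filter. With no filter on low values, limma called it in YS against BM lines (adjusted p = 0.0411) and in YS against FL lines (adjusted p = 0.0774). Usp29, Zim1, Zim2 and Zim3, its neighbours, did not exceed 0.14 TPM.

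PLAGL1 is a zinc-finger factor that activates several imprinted genes and restrains proliferation. Plagl1 was at 0, 0.06 and 1.49 TPM in the YS lines, 0.31, 0.02 and 0.09 TPM in the FL lines and 0, 0.24 and 0.06 TPM in the BM lines. YS line 3 alone reached 1 TPM, and the groups overlapped, with a YS minus BM difference of 0.34 (exact two-sided permutation p = 0.9). Peg3, whose promoter window holds the PLAGL1 motif shown above, was lowest among YS lines in that same line. The part of PLAGL1 in the Peg3 level was not tested. Mest, a paternal gene for an alpha/beta hydrolase of the endoplasmic reticulum, was between 0 and 0.67 TPM, highest in BM line 3. Its groups overlapped as well, at 0.17 ± 0.06 TPM in the YS lines, 0.18 ± 0.18 TPM in the FL lines and 0.39 ± 0.25 TPM in the BM lines (SD, n = 3). Copg2, which lies next to Mest, was at 28.6 to 40.6 TPM in all lines.

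IMPACT binds GCN1 and thereby holds back the kinase GCN2, which senses missing amino acids and starts the integrated stress response. Impact was the only member at 1 TPM or more in all 9 lines. It was at 36.0, 27.6 and 33.5 TPM in the YS lines, 40.7, 56.6 and 62.9 TPM in the FL lines and 59.1, 46.2 and 50.9 TPM in the BM lines. All YS lines were below all FL and BM lines. Group means were 53.4 ± 11.5 TPM in the FL lines, 52.1 ± 6.53 TPM in the BM lines and 32.4 ± 4.31 TPM in the YS lines (SD, n = 3). The FL and BM lines did not differ beyond their spread, at 0.02 ± 0.18 (SE) on the log2 scale (limma adjusted p = 0.957). Impact was lower in YS lines by less than 2-fold and so was not called. The log2 fold change was -0.67 against BM lines (SE 0.18, limma adjusted p = 0.0280) and -0.69 against FL lines (SE 0.18, adjusted p = 0.0661). On leaving out each line in turn, the former lay between -0.75 and -0.56, with adjusted p from 0.0152 to 0.105, and the latter between -0.87 and -0.56, with adjusted p from 0.0365 to 0.186. Non-overlap was common, as the groups stood apart for 49% of all genes tested in the YS and BM lines, and for 26.1% in the YS and FL lines. Among the 2 members tested, limma thus called 0 in YS against BM lines, 0 in FL against BM lines and 0 in YS against FL lines, with 1, 0 and 1 at an unadjusted p under 0.05, where 41.2%, 33.6% and 25.7% of all genes were.

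Across the 9 lines, Impact was most like Dpm2, a subunit of the dolichol-phosphate mannose synthase (Pearson r = 0.965, Spearman rho = 0.983), Dctn2, a subunit of dynactin (0.937 and 0.917), and Mir6516 (0.932 and 0.917). Mir6516 is a short precursor whose TPM is sensitive to few reads. As above, these genes were picked as the highest over 9 libraries and carry no test.

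All 13 genes of the GCN2 pathway in the table passed the filter. In YS against BM lines 2 of 13 were called, in FL against BM lines 2 and in YS against FL lines 1, each higher in the group named first, where 7.57%, 6.01% and 1.95% of all genes were called higher. Psat1, an enzyme of serine synthesis, rose by 1.33 in YS against BM lines (SE 0.37, limma adjusted p = 0.0305). The call was lost without BM line 1 (adjusted p = 0.109). Eif2ak4, which encodes GCN2, was at 17.4 ± 1.72 TPM in the YS lines, 19.9 ± 1.66 TPM in the FL lines and 24.8 ± 2.30 TPM in the BM lines (SD, n = 3), and was called in no comparison. Differences under 2-fold went both ways. In YS against BM lines they were -0.49 for Eif2ak4 (limma adjusted p = 0.0254) and 0.91 for Ppp1r15a (adjusted p = 0.0271). In FL against BM lines they were -0.67 for Atf4 (adjusted p = 0.00484), -0.54 for Asns (0.0322) and 0.95 for Trib3 (0.0849). Slc7a11, the cystine transporter, was at 13.1, 7.17 and 3.14 TPM in the YS lines and at most 2.84 TPM in FL and BM lines. Its calls, a rise of 1.12 against BM lines (adjusted p = 0.0816) and of 1.54 against FL lines (adjusted p = 0.0715), were lost on leaving out most lines, with adjusted p up to 0.193 and 0.174. The list medians were 0.16, -0.09 and 0.14 on the log2 scale in the 3 comparisons.

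Among the Notch receptors and ligands, relatives of DLK1, Notch1 was highest in FL lines. Of 10 genes 5 were tested, and 2 were called in YS against BM lines, 1 in FL against BM lines and 3 in YS against FL lines, where 12.8%, 10.3% and 3.79% of all genes were. Notch1 was at 1.24, 2.55 and 3.40 TPM in the YS lines, 12.6, 13.9 and 9.42 TPM in the FL lines and 3.70, 4.72 and 3.80 TPM in the BM lines. FL lines were above all others. Notch1 fell by 1.97 in YS against FL lines (SE 0.27, limma adjusted p = 0.0128) and rose by 1.34 in FL against BM lines (SE 0.27, adjusted p = 0.00975). The ligand gene Dll1 was at 14.8, 3.64 and 3.28 TPM in the YS lines and at most 1.5 TPM in the other lines, and rose by 1.85 in YS against BM lines (SE 0.51, limma adjusted p = 0.0299). That call was lost without BM line 1 (adjusted p = 0.106). The Dll1 rise of 1.95 in YS against FL lines (SE 0.51, adjusted p = 0.0650) was lost without FL line 2 (0.179), FL line 3 (0.149) or any BM line (0.102 to 0.110). Jag2, also a ligand gene, rose by 1.85 in YS against FL lines (SE 0.47, limma adjusted p = 0.0608), a call lost on leaving out each line other than YS lines 1 and 3, with adjusted p up to 0.163. Jag1, another ligand gene, fell by 1.17 in YS against BM lines (SE 0.25, limma adjusted p = 0.0111), and by 0.92, short of 2-fold, without YS line 3.

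A further 69 imprinted genes gave the background for the members. Of these, 36 reached 1 TPM in at least 1 line, 33 did not, and 13 were listed at 0 in every line. Among the 32 that passed the filter, 6 were called in YS against BM lines (5 higher, 1 lower), 4 in FL against BM lines (3 higher, 1 lower) and 4 in YS against FL lines (all higher). The backgrounds are the 12.8%, 10.3% and 3.79% given above, with 1.95% called higher in YS against FL lines. The list medians were 0.45, 0.13 and 0.13 on the log2 scale. Gnas, the stimulatory G protein subunit, was at 493 to 994 TPM, and Cd81, a tetraspanin, at 344 to 713 TPM.

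The cluster around Peg10 held several of the called genes. Casd1, a sialic acid O-acetyltransferase, was at 37.9, 43.2 and 43.9 TPM in the YS lines and 26.9, 45.0 and 39.0 TPM in the FL lines. In BM lines it was listed at 0, 6.62 and 0.04 TPM. BM line 2 was again the highest of its group. Casd1 rose by 4.42 in YS lines (SE 0.68, limma adjusted p = 0.00383) and by 4.22 in FL lines (SE 0.68, adjusted p = 0.00412) against BM lines, and by 5.38 and 5.19 without BM line 2. Sgce, which encodes epsilon-sarcoglycan, was at 3.61, 34.4 and 16.1 TPM in the YS lines, 0.59, 0 and 0.18 TPM in the FL lines and 0, 6.47 and 0 TPM in the BM lines. Peg10, a retrotransposon-derived gene needed in the placenta, was at 1.16, 2.93 and 3.03 TPM in the YS lines, 0.70 TPM in BM line 2 and at most 0.12 TPM elsewhere. Sgce rose by 3.51 in YS against FL lines (SE 0.91, limma adjusted p = 0.0624), a call lost without YS line 2 (0.108), FL line 2 (0.165) or FL line 3 (0.163). Sfmbt2, a Polycomb-type gene of the placenta outside that cluster, was at 7.16, 3.98 and 5.90 TPM in the YS lines, 1.01 TPM in BM line 2 and at most 0.13 TPM elsewhere, and rose by 2.62 in YS against FL lines (SE 0.33, limma adjusted p = 0.00949).

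The Kcnq1 cluster, which borders the H19-Igf2 locus, was expressed in part. Tspan32, a tetraspanin of blood cells, was at 32.3, 2.42 and 57.7 TPM in the YS lines and at most 2.41 TPM in the other lines. It rose by 4.15 in YS against BM lines (SE 0.91, limma adjusted p = 0.0127). The rise of 3.23 against FL lines (adjusted p = 0.0743) was lost on leaving out each line other than YS line 2, with adjusted p up to 0.194. Kcnq1, a potassium channel gene, was at 18.8, 1.18 and 18.1 TPM in the FL lines and at most 2.21 TPM in the others, and rose by 3.07 in FL against BM lines (SE 0.81, limma adjusted p = 0.0298). FL line 2 was near the YS lines. Cdkn1c, the cell cycle inhibitor of the cluster, was between 0.07 and 2.08 TPM, and the non-coding Kcnq1ot1 between 0.36 and 0.74 TPM.

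Some imprinted genes were on or off in single lines, which were picked out after the values had been seen. Ndn, the gene of the growth suppressor necdin, was at 35.5 TPM in FL line 2, 1.41 TPM in FL line 1 and at most 0.09 TPM in the other 7 lines. Its neighbours Peg12 and Mkrn3 were highest in the same line, at 2.06 and 1.88 TPM, against at most 0.06 and 0.95 TPM elsewhere. FL line 2 also lacked Peg13, a non-coding RNA of the paternal copy, which was at 0.06 TPM there and at 3.69 to 9.49 TPM in the other lines. Zrsr1, a splicing factor gene of the paternal copy, was at 0.11 TPM in FL line 1 and 0.10 TPM in FL line 3 and at 2.53 to 5.6 TPM in the other lines. Commd1, its host gene, was at 122 to 205 TPM in all 9 lines. All of these departures lay in FL lines, and none was shared by all 3 FL lines. The genes were picked for such patterns, so this is a description only.

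**Figure D4:**
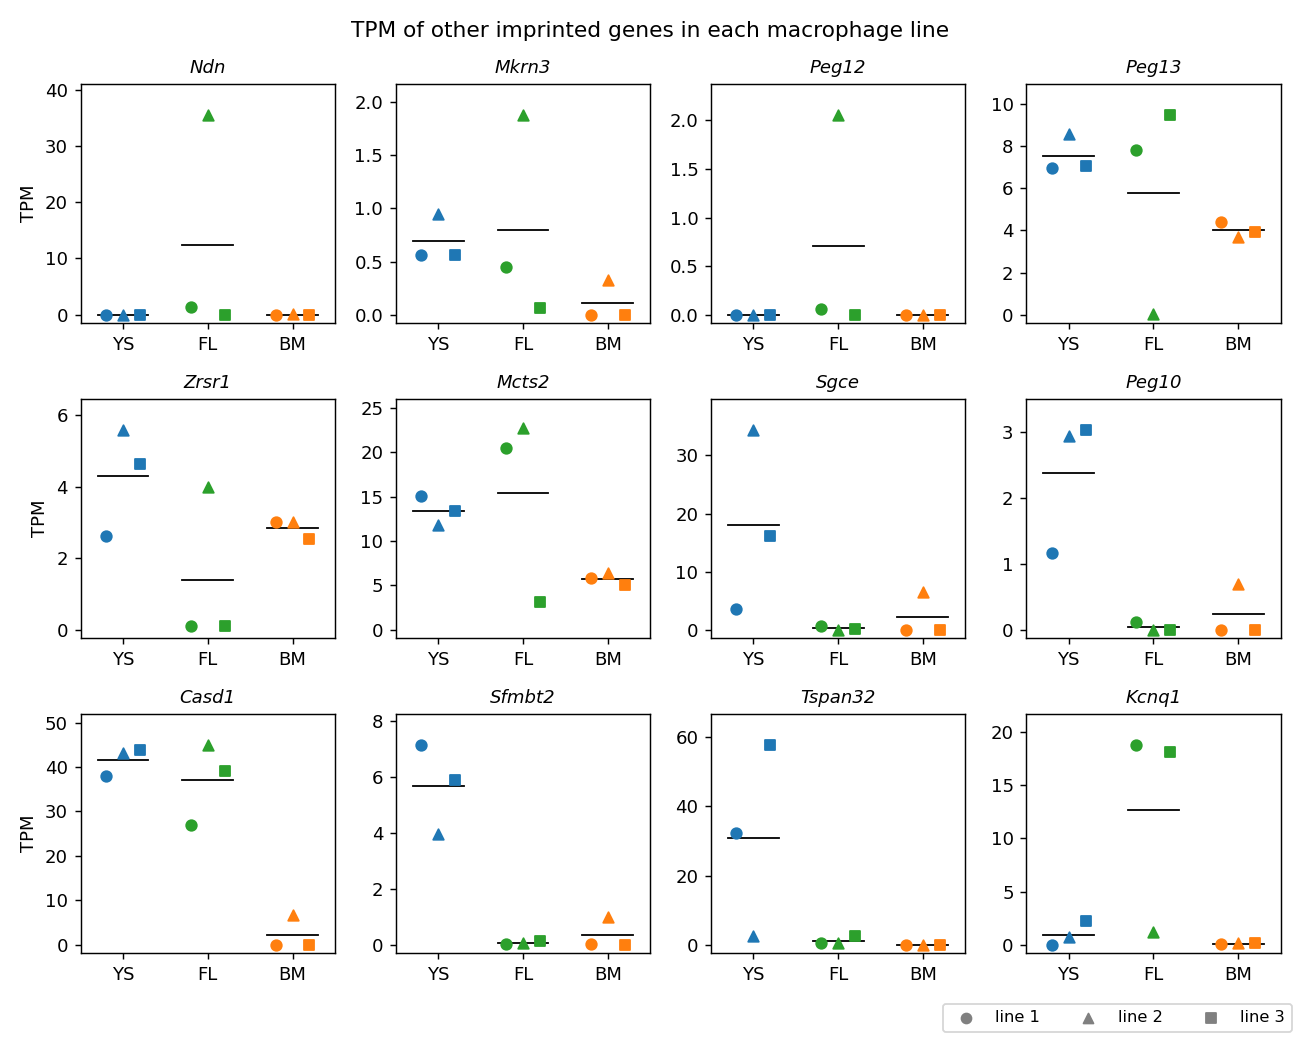
TPM of 12 other imprinted genes in the YS, FL and BM lines, with a linear axis for each gene. Symbols mark lines 1, 2 and 3 and the bar is the group mean. Ndn, Mkrn3 and Peg12 are highest in FL line 2, where Peg13 is at 0.06 TPM, and Casd1 reaches 6.62 TPM in BM line 2 but at most 0.04 TPM in BM lines 1 and 3.

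In a list of genes that keep imprints in place or otherwise act on DNA methylation and chromatin, Tet genes included, Dnmt1 was the only called gene. Of 22 genes 17 were tested, and Dnmt1 was called in YS against BM lines (12.8% of all genes were) and in YS against FL lines (3.79%). In YS against BM lines 10 of 17, Tet3 among them, had an unadjusted p under 0.05, where 41.2% of all genes had. The list median was 0.43 on the log2 scale, against 0.11 over all genes. In FL against BM lines limma called 0 of 17, with 2 at an unadjusted p under 0.05, where 33.6% of all genes were. Dnmt1, the methyltransferase that copies DNA methylation at division, was at 279, 195 and 485 TPM in the YS lines, 177, 110 and 128 TPM in the FL lines and 118, 131 and 125 TPM in the BM lines. All YS lines were above the others. Dnmt1 rose by 1.25 in YS against BM lines (SE 0.30, limma adjusted p = 0.0192), and by 0.89, short of 2-fold, without YS line 3. The rise of 1.13 in YS against FL lines (adjusted p = 0.0682) was lost without YS line 1, YS line 3, FL line 2, FL line 3 or any BM line, with adjusted p up to 0.192. Zfp57 was listed at 0 in 8 lines and at 0.11 TPM in YS line 3, while Trim28, the partner through which ZFP57 acts, was at 99.3 to 245 TPM and Zfp445, a zinc-finger gene with a like role, at 29.9 to 53.6 TPM.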

How the data were processed

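Bulk RNA-seq of 9 mouse macrophage lines (3 YS, 3 FL and 3 BM lines) was analysed from a table of TPM that the authors deposited. The libraries were poly(A)-selected and directional, with reads of 75 nt from 1 end. The submitters' processing notes name Trim Galore 0.6.6, STAR 2.7.9a and RSEM 1.3.3, and the genome build and annotation are not given in the sources used here. The table has 24411 gene symbols in 2 decimals. TPM keeps no depth, so no counting error could be given.

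Groups and line numbers came from the sample labels. TPM were set on the log2(TPM + 1) scale. A filter of 1 TPM in 3 or more of the 9 libraries left 11753 genes, to which limma 3.58.1 in R 4.3.3 was fitted across the 9 libraries with an intensity trend. P-values were adjusted by Benjamini and Hochberg over all genes tested, and a gene was called at an adjusted p under 0.1 and over 2-fold, the thresholds of the study. Fold changes are on the log2(TPM + 1) scale and understate those of low genes. For members below the filter, the exact permutation test (two-sided) was used. The fit was tested on simulated data.

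The members and lists were chosen with earlier results of these data known. Named genes were all members, at most the 3 called genes of each list and comparison with the largest change, and the 3 genes most correlated with each member that passed the filter. Others, named for their place in a pathway or domain or for a high value in 1 line, were chosen after their values were seen. Same-numbered lines did not deviate together, so the numbers do not pair lines. Alternatives were other pseudocounts, filters, scalings, thresholds and fits, a replicate block, and each line left out. Promoters and microRNAs came from RefSeq (GRCm38.p6).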

Additional observations from a re-analysis of the deposited data

How the results depend on the processing

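TPM gives no depth, so the levels under 1 TPM of 8 of the 10 imprinted growth genes have no counting error. Scaling moved the median of all genes: the median log2 fold change of YS against BM lines was 0.11 as reported and -0.01 after quantile normalization. The split of called genes then moved from 890 higher and 614 lower to 724 and 763 in YS against BM lines, and from 706 and 505 to 592 and 593 in FL against BM lines. Impact in FL against BM lines turned from 0.02 to -0.084 with quantile normalization, to -0.071 with median-of-ratios scaling, and to -0.034, -0.11 and -0.062 without FL line 2, FL line 3 and BM line 2 (-0.11 to 0.20 over the 9 omissions). Igf2r turned to 0.22 in YS against BM lines without YS line 1 (-1.90 to 0.22 over the omissions) and to -0.67 in FL against BM lines without FL line 1 (-0.67 to 1.06). The count of members called was 0 in all 3 comparisons and became 1 in YS against BM and 1 in YS against FL lines with no filter (Peg3) or with no fold threshold (Impact). Other imprinted genes called (6, 4 and 4) became 3, 2 and 1 with a filter of 5 TPM, 2 and 2 (FL against BM, YS against FL) at an adjusted p under 0.05, 13 and 10 (YS against BM, FL against BM) with no fold threshold, and 1 in YS against FL lines fitted on those 6 libraries only. All genes called (1504, 1211 and 446) became 4455, 3247 and 1500 with no fold threshold, and in YS against FL lines 280 with a pseudocount of 4, 81 on those 6 libraries and 234 at an adjusted p under 0.05. Leaving out each line in turn gave 1138 to 1598, 902 to 1309 and 191 to 588 genes, 4 to 8, 2 to 5 and 1 to 5 other imprinted genes, and 0 members. The lowest count in YS against FL lines, 191, came without FL line 3. With the replicate block 1503, 1191 and 409 genes were called, and the calls of Slc7a11 in both comparisons and of Psat1 in FL against BM lines were lost. The correlation of same-numbered lines' deviations lay between -0.12 and 0.09. Of the fold changes of named genes recomputed under these alternatives, 688 kept their direction and call, 134 kept the direction and lost the call, 2 gained it and 7 reversed. Of the differences of members below the filter, 16 moved beyond the spread, all under another pseudocount, and 200 did not. The cause of these changes was not tested.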
